A study of Homo sapiens with 12 samples.

Results

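The 10 genes described here are STAT3, STAT5A, STAT5B and STAT6, the inhibitors SOCS1, SOCS3 and CISH, and the kinases PIM1, PIM2 and PIM3. They were chosen by name from the deposited FPKM table (fragment numbers corrected for exon length and for library depth), in which each symbol had 1 row among 61466. All 10 rows and all 12 libraries were used. SU-DHL-8 and Farage are established human lines of diffuse large B cell lymphoma, and the labels give lymph node as their tissue. Each line received vehicle (the controls, whose genotype is labelled WT) or morusinol, a prenylated flavonoid found in mulberry plants, for 12 h, with 3 libraries in each of the 4 groups. The sources used here do not give the dose, no other allele or agent is named, and the labels do not say whether the 3 libraries were separate cultures. The p-values below therefore measure only the spread between these libraries.

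Cytokine receptors activate JAK kinases, which phosphorylate STAT transcription factors; STAT dimers then enter the nucleus and switch on genes that include SOCS1, SOCS3, CISH and PIM1. The SOCS proteins and CISH close the loop by blocking JAK kinases or the docking sites on the receptors. PIM kinases are serine/threonine kinases that are controlled largely through their amount, and PIM1 and SOCS1 are among the genes that acquire mutations by somatic hypermutation in lymphomas of this kind.

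The sequences upstream of 4 of these genes are shown because PIM1 and SOCS1 were the members called in SU-DHL-8, PIM2 differed most between the lines in its response, and CISH had the most matches to the STAT dimer motif. They are from RefSeq, build GRCh38.p14, and read 5′ to 3′ on the strand of the gene. PIM1 is at chr6:37169902-37170151 on the plus strand, PIM2 at chrX:48919025-48919274, CISH at chr3:50611832-50611907 and SOCS1 at chr16:11256205-11256454, all 3 on the minus strand. Capitals mark matches to a motif (the octamer in PIM2, the STAT dimer motif in CISH and the interferon response core in SOCS1), and PIM1 has none.
PIM1: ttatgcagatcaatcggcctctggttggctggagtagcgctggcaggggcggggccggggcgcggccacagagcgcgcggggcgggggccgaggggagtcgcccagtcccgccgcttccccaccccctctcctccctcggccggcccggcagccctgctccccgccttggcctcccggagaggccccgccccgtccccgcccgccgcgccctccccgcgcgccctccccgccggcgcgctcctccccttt
PIM2: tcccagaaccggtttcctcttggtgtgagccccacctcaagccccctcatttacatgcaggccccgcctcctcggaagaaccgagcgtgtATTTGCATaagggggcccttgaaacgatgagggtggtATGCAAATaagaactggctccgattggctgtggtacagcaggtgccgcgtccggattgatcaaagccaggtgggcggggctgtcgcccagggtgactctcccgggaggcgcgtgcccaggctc
CISH: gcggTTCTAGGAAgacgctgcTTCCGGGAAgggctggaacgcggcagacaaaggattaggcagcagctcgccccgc
SOCS1: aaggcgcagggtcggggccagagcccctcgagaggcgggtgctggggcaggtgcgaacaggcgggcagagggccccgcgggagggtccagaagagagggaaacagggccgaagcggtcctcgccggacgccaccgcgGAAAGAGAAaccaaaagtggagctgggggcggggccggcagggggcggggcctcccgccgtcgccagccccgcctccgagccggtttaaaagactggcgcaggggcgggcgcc

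The motifs were chosen after the sequences had been seen, and they were searched on both strands of the 250 bases before each start site in 35116 RefSeq windows. The STAT dimer motif TTCNNNGAA was in 6.57% of all windows, and 10 windows held 3 or more matches. CISH was one of them, with 4 matches that begin at positions -241, -230, -129 and -112 from its start site. The first pair lies in an exon of MAPKAPK3 on the other strand and is not printed. The octamer ATGCAAAT, a motif of OCT1 and OCT2, was in 1.63% of windows and occurred 2 or more times in 13, among them PIM2 with matches that begin at -160 and -123. SOCS1 had 1 match to GAAANNGAA, found in 6.88% of windows. STAT5A had 1 match to the STAT6 motif TTCNNNNGAA, found in 5.38% of windows. CACGTG (6.35% of windows) and TGATGNAA (3.14%) were in none of the members' windows, and PIM1, PIM3, STAT3, STAT5B, STAT6 and SOCS3 held no match to any of the 6 motifs in these windows. A match is a description of the letters only, and no binding was measured.

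On the human build GRCh38 with GENCODE release 29, STAT5B (chr17:42199168-42276707), STAT5A (chr17:42287547-42311943) and STAT3 (chr17:42313324-42388568) lie side by side, with STAT5A on the plus strand between its neighbours on the minus strand. SOCS3 is further along at chr17:78356778-78360077. The other members are STAT6 (chr12:57095408-57132139), SOCS1 (chr16:11254405-11256200) and CISH (chr3:50606490-50611831) on minus strands, PIM1 (chr6:37170203-37175426) and PIM3 (chr22:49960513-49964080) on plus strands, and PIM2 (chrX:48913182-48919024) on the minus strand. STAT5A and STAT5B are near copies in part of their length. Of the distinct 50-base stretches in STAT5A exons, 8.61% also occur in STAT5B, so a part of their values could have been assigned to either gene. For SOCS1, SOCS3, CISH and the PIM genes no stretch of that length occurs in another gene. The sources used here do not give the strand used in counting, which touches STAT6 (69 exon bases shared with NAB2 on the other strand) and CISH (218 with MAPKAPK3).

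The estimated depth in M (mega) fragments was 14.2 to 15.2 for the controls of SU-DHL-8, 6.05 to 14.97 for its treated libraries, 16.6 to 19.0 for Farage controls and 9.37 to 12.7 for treated Farage libraries. Depth was thus lower with treatment in Farage without overlap, and its part in the results was not tested. All 6 B cell markers had group means above 1 FPKM in every group, and their summed level was lower with morusinol: 354 to 368 FPKM against 230 to 238 in SU-DHL-8, and 966 to 1021 against 613 to 660 in Farage. The genes behind that sum differed between the lines. In SU-DHL-8 CD79A went from a mean of 175 to 43.0 FPKM, while CD79B (71.7 to 91.6 FPKM, adjusted p = 0.016) and PAX5 (39.8 to 45.1 FPKM, adjusted p = 0.034) rose, so 4 of the 6 fell and 2 rose. In Farage 5 of 6 fell, with MS4A1 going from 356 to 92.9 FPKM, and CD79A was not called (391 and 376 FPKM). The part of these shifts in the results below was also not tested. Of the 8 T and NK cell markers, 2 had a mean of at least 1 FPKM in each group. In SU-DHL-8 these were TRAC (2.30 in controls and 1.09 with morusinol) and NKG7 (1.38 and 1.95). In Farage TRAC led, at a mean of 70.0 in controls and 47.1 with morusinol. The summed 6 myeloid markers reached at most 1.78 FPKM, and the summed 7 fibroblast, endothelial and epithelial markers at most 2.17. In these bulk samples, fewer cells of a type and less RNA per cell cannot be told apart.

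Of the 10 genes, 8 passed the filter of at least 1 FPKM in at least 3 libraries and were tested among 17574 genes with limma on log2(FPKM + 1), where a call is a Benjamini-Hochberg adjusted p under 0.05. SOCS3 and CISH did not pass it. In SU-DHL-8, PIM1 and SOCS1 rose and none of the other 6 was called. In Farage, PIM1, PIM2, PIM3, STAT5A and STAT3 rose. The background was high: 46.8% of all tested genes were called in SU-DHL-8 (25.1% higher and 21.6% lower) and 43.1% in Farage (21.9% higher and 21.2% lower). The 2 of 8 members called in SU-DHL-8, both higher, are thus a share near that of all genes that rose. In Farage it was 5 of 8, all higher, against 21.9% higher and 43.1% called. Such shares are larger among better expressed genes. With a filter of 5 FPKM in place of 1, 63.6% of 8908 genes were called in Farage and 67.1% in SU-DHL-8, in either direction. The members were not set against genes of like level. The median log2 fold change of the 8 was 0.11 in SU-DHL-8 and 0.67 in Farage, beside 0.02 and -0.03 over all tested genes.

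**Figure D1:**
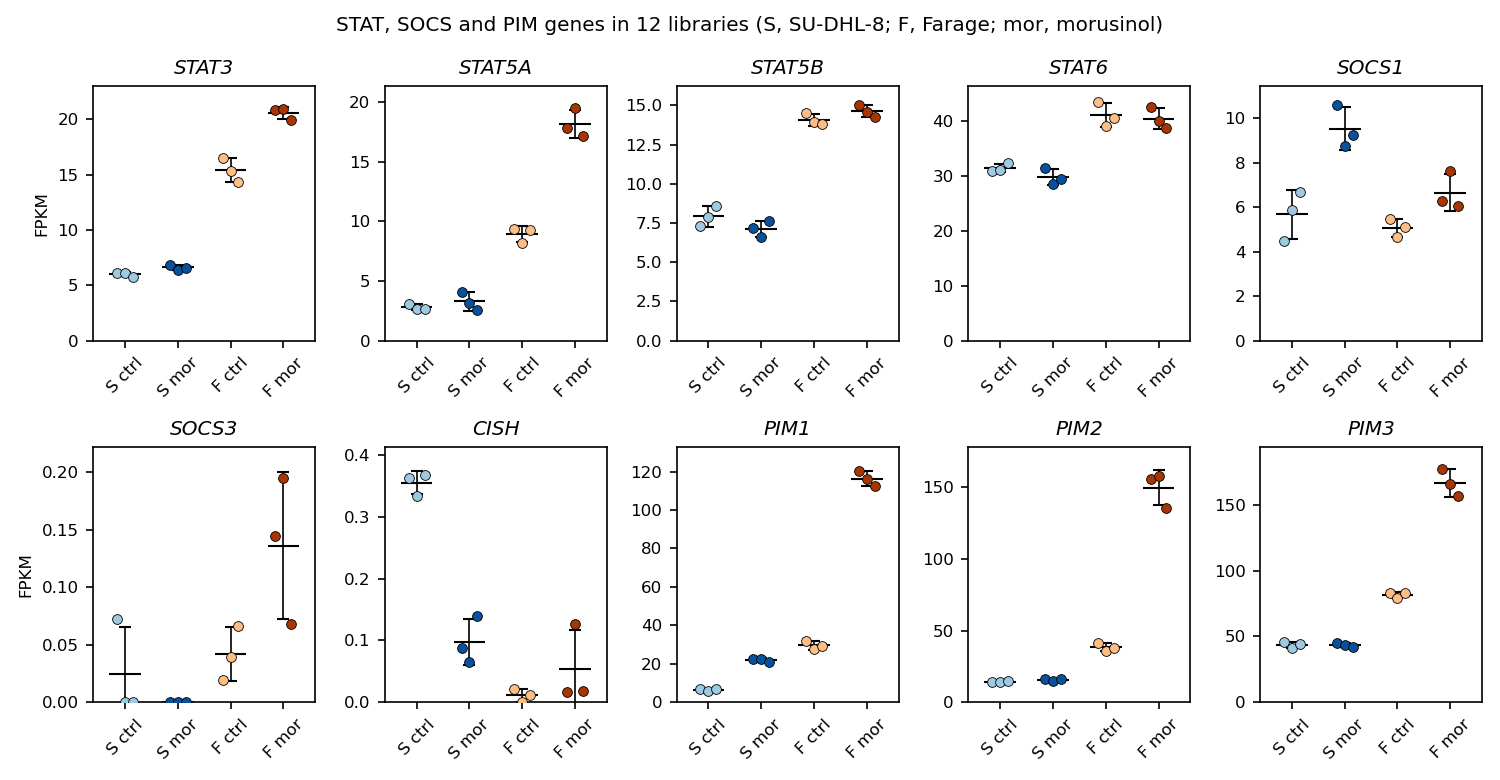
FPKM (y axis, from 0, its own scale for each gene) of the 10 genes in each of the 12 libraries. Points are libraries, horizontal bars are group means and error bars are the SD of 3 libraries. S is SU-DHL-8, F is Farage, ctrl is vehicle and mor is morusinol. PIM2 and PIM3 are highest in Farage morusinol, at means of 149.7 and 167 FPKM, with the Farage controls also above both SU-DHL-8 groups, while PIM1 is higher with morusinol in both lines.

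Among the STAT factors, STAT3, which carries signals of the interleukin-6 and interleukin-10 families, was at 6.07, 6.15 and 5.78 FPKM in SU-DHL-8 controls and 6.84, 6.40 and 6.58 with morusinol. The Farage values were 16.5, 15.4 and 14.3 FPKM in controls and 20.8, 21.0 and 19.9 with morusinol. The treated libraries lay above the controls in both lines without overlap, but by little in SU-DHL-8. STAT3 rose in Farage (log2 fold change 0.40 ± 0.0513, SE; adjusted p = 0.00012; ratio of mean FPKM 1.33). In SU-DHL-8 the change of 0.12 ± 0.0513 did not pass the test (adjusted p = 0.081, limma). It passed in 3 of 22 alternatives, over which the value ran from 0.031 to 0.18. These were leaving out Farage control 1 or Farage control 3 (adjusted p = 0.046 and 0.047) and scaling to protein-coding genes (0.18, adjusted p = 0.017). Leaving out either Farage control kept the value at 0.12. It could enter through the shared estimate of spread and through the set of genes tested (17221 and 17252 in place of 17574).

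STAT5A, a factor of interleukin-2 family signalling, gave the largest change among the 4 STAT genes. It was at 3.07, 2.67 and 2.66 FPKM in SU-DHL-8 controls and 4.10, 3.18 and 2.55 with morusinol, which overlap. In Farage it was at 9.39, 8.17 and 9.25 FPKM in controls and 17.8, 19.5 and 17.2 with morusinol, so all 3 treated libraries were far above the controls. STAT5A rose in Farage by 0.95 ± 0.115 (adjusted p = 7.6e-05, ratio of means 2.03), and the SU-DHL-8 value was 0.15 ± 0.115 (adjusted p = 0.32; 95% interval -0.10 to 0.41). Without SU-DHL-8 morusinol 3, its lowest treated library, the SU-DHL-8 value was 0.28 and was called (adjusted p = 0.044). That was 1 of 22 alternatives, over which the value ran from 0.020 to 0.28.

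Its close relative STAT5B was at 7.30, 7.86 and 8.60 FPKM in SU-DHL-8 controls and 7.17, 6.59 and 7.60 with morusinol. Its Farage levels were 14.5, 13.9 and 13.8 FPKM without and 15.04, 14.6 and 14.3 with morusinol. The groups overlapped within each line. The change was -0.13 ± 0.0602 in SU-DHL-8 (adjusted p = 0.095) and 0.05 ± 0.0602 in Farage (adjusted p = 0.54). Over 22 alternatives the SU-DHL-8 value ran from -0.25 to -0.068, and the fall was called in 3. These were leaving out SU-DHL-8 control 1 (-0.19, adjusted p = 0.034) and rescaling to TPM (-0.25, adjusted p = 0.037) or by the median of ratios (-0.17, adjusted p = 0.038).

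The ratio of STAT5A to STAT5B, both in FPKM and so per length, was 0.357 ± 0.0576 (SD, n = 3) in SU-DHL-8 controls and 0.463 ± 0.119 with morusinol. In Farage it was 0.635 ± 0.0437 in controls and 1.24 ± 0.0828 with morusinol, where STAT5A was the more abundant of the pair. The part of the stretches that the genes share in this ratio was not tested.

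STAT6, the factor of interleukin-4 and interleukin-13 signalling, was the most abundant of the 4 STAT genes in every library. It was at 31.0, 31.0 and 32.4 FPKM in SU-DHL-8 controls and 31.5, 28.6 and 29.5 with morusinol. Farage controls were at 43.5, 39.2 and 40.6 FPKM and treated Farage libraries at 42.6, 40.1 and 38.7. The groups of each line overlapped, with changes of -0.07 ± 0.0517 (95% interval -0.19 to 0.04) in SU-DHL-8 and -0.02 ± 0.0517 (-0.14 to 0.09) in Farage. STAT6 made up 65.3% ± 0.230 of the summed FPKM of the 4 STAT genes in SU-DHL-8 controls and 63.7% ± 0.194 with morusinol. In Farage its share was 51.7% ± 0.501 in controls and 43.1% ± 1.04 with morusinol, while that of STAT5A went from 11.2% ± 0.602 to 19.4% ± 1.02.

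Of the inhibitors, SOCS1, which binds JAK kinases and blocks them, was at 4.50, 5.87 and 6.68 FPKM in SU-DHL-8 controls and 10.6, 8.78 and 9.25 with morusinol. The Farage values were 5.47, 4.66 and 5.13 FPKM in controls and 6.30, 7.61 and 6.06 with morusinol. The treated libraries lay above the controls in both lines without overlap. SOCS1 rose in SU-DHL-8 by 0.67 ± 0.124 (adjusted p = 0.0011, ratio of means 1.68). The Farage change of 0.33 ± 0.124 did not pass (adjusted p = 0.056). It was called in 5 of 22 alternatives, over which the value ran from 0.24 to 0.39. Leaving out SU-DHL-8 control 1 or 3 kept the value at 0.33 (adjusted p = 0.022 and 0.038). The rest were a filter of 5 FPKM (0.030), the Farage groups fitted alone (0.041) and scaling to protein-coding genes (0.39, adjusted p = 0.027). The difference of the responses, -0.34 ± 0.176, was not called (adjusted p = 0.16).

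CISH, which competes with STAT5 for its docking sites on receptors, was at 0.364, 0.334 and 0.368 FPKM in SU-DHL-8 controls, which rest on an estimated 28.3, 24.3 and 27.8 fragments. With morusinol it was at 0.0873, 0.0653 and 0.139 FPKM, or 5.06, 2.02 and 10.6 fragments. All 3 treated values lay below the controls. With no filter, CISH fell in SU-DHL-8 (-0.31 ± 0.0550, adjusted p = 0.0024), where 19.6% of 42413 genes were called; log2(FPKM + 1) compresses changes at such levels. In Farage CISH was at 0.0209, 0 and 0.0119 FPKM in controls and 0.0156, 0.127 and 0.0185 with morusinol, at most an estimated 6.07 fragments. Between the controls, with no filter, CISH was lower in Farage (-0.42 ± 0.0550, adjusted p = 0.00014, limma), where 32.2% of genes were called. The difference of its responses was 0.36 ± 0.0778 (adjusted p = 0.012), where 13.4% were called.

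SOCS3, an inhibitor of interleukin-6 family receptors, was close to absent. Its SU-DHL-8 controls were at 0.0720, 0 and 0 FPKM, and it was listed at 0 in all 3 treated libraries of this line. Its Farage levels were 0.0193, 0.0394 and 0.0662 FPKM without and 0.145, 0.195 and 0.0683 with morusinol. No library held more than 5 estimated fragments of SOCS3. The Farage difference without a filter was 0.12 ± 0.0412 and did not pass (adjusted p = 0.068). Between the morusinol groups of the lines, where 34.9% of genes were called without a filter, SOCS3 was higher in Farage (0.18, adjusted p = 0.0056).

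PIM1, the kinase first known as an integration site of a mouse leukaemia virus, rose in both lines. It was at 6.73, 5.996 and 6.66 FPKM in SU-DHL-8 controls and 22.6, 22.3 and 20.8 with morusinol. Farage controls were at 31.7, 27.5 and 29.2 FPKM and treated Farage libraries at 120.5, 116 and 112. Every treated library was above every control of its line, and the Farage controls were above the treated SU-DHL-8 libraries. The change was 1.62 ± 0.0598 in SU-DHL-8 (adjusted p = 1.0e-08, ratio of means 3.39) and 1.95 ± 0.0598 in Farage (adjusted p = 5.1e-09, ratio of means 3.95). Over all tested genes, 98.8% had a lower log2 fold change than PIM1 in SU-DHL-8 and 99.6% in Farage. Without SU-DHL-8 morusinol 2, the shallowest library, the SU-DHL-8 value was 1.61.

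PIM2, a kinase abundant in lymphoid and plasma cells, was at 14.2, 14.1 and 14.8 FPKM in SU-DHL-8 controls and 16.1, 14.6 and 15.9 with morusinol. The Farage values were 41.5, 35.8 and 37.7 FPKM in controls and 156, 158 and 135 with morusinol. The SU-DHL-8 groups overlapped and the Farage groups were far apart. The change was 0.11 ± 0.0696 in SU-DHL-8 (adjusted p = 0.26; 95% interval -0.05 to 0.26) and 1.94 ± 0.0696 in Farage (adjusted p = 1.3e-08, ratio of means 3.91). In Farage 99.6% of tested genes had a lower log2 fold change than PIM2.

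PIM3, the third kinase of the family, was at 45.4, 41.1 and 44.2 FPKM in SU-DHL-8 controls and 45.1, 43.1 and 41.6 with morusinol. Its Farage levels were 82.5, 79.4 and 83.2 FPKM without and 177, 166 and 156 with morusinol. The pattern was that of PIM2, with overlap in SU-DHL-8 and none in Farage. The change was -0.01 ± 0.0538 in SU-DHL-8 (adjusted p = 0.94; 95% interval -0.13 to 0.11) and 1.02 ± 0.0538 in Farage (adjusted p = 1.9e-07, ratio of means 2.04). The small SU-DHL-8 value turned positive when SU-DHL-8 control 1, control 3 or morusinol 3 was left out (0.02, 0.0015 and 0.018).

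**Figure D2:**
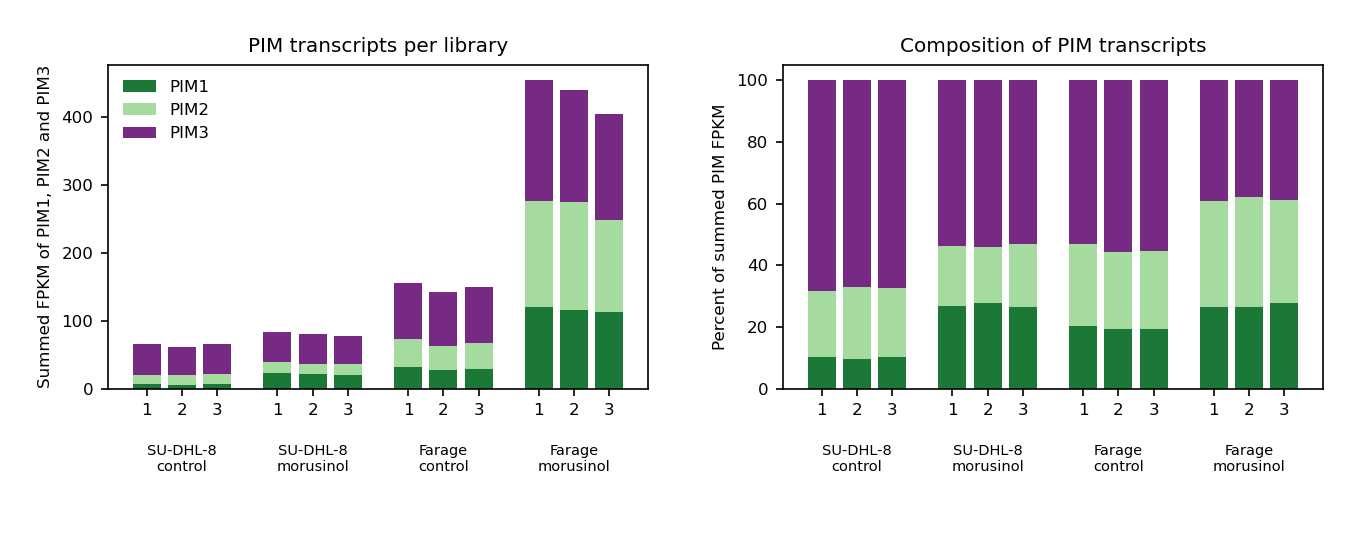
Left, summed FPKM of PIM1, PIM2 and PIM3 (y axis, from 0) in each library, stacked by gene. Right, the percent of that sum from each gene. The x axis gives the library number within each group. The sum is highest in the 3 Farage morusinol libraries, and the PIM1 share is 10.03% in SU-DHL-8 controls and 27.1% in SU-DHL-8 morusinol.

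Summed over the 3 genes, PIM transcripts were at 64.4 ± 2.74 FPKM in SU-DHL-8 controls and 80.7 ± 2.82 with morusinol (SD, n = 3). In Farage the sum was 149 ± 6.57 FPKM in controls and 433 ± 25.5 with morusinol. In SU-DHL-8 the added transcripts were those of PIM1, whose share of the sum was 10.03% ± 0.209 in controls and 27.1% ± 0.643 with morusinol, while PIM3 went from 67.6% ± 0.717 to 53.6% ± 0.441. PIM3 was the most abundant of the 3 in all 12 libraries. In Farage the shares of PIM1 and PIM2 were 19.7% ± 0.599 and 25.6% ± 0.888 in controls and 26.9% ± 0.755 and 34.6% ± 1.19 with morusinol, and that of PIM3 went from 54.7% ± 1.48 to 38.5% ± 0.727. The plot of PIM transcripts by library shows that the 3 libraries of a group had nearly the same composition. Shares of a sum move together by construction and were not tested.

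The test of the difference between the responses (Farage minus SU-DHL-8) called 34.9% of all tested genes, 17.3% as higher and 17.6% as lower in Farage. With a filter of 5 FPKM the share called was 51.4% of 8908 genes. Of the 8 members, 5 were called, all in the direction of a larger change in Farage, with a median of 0.30 over the 8 and -0.07 over all tested genes. PIM2 had the largest difference, 1.83 ± 0.0984 (adjusted p = 6.4e-07), followed by PIM3 at 1.03 ± 0.0761 (adjusted p = 4.9e-06) and STAT5A at 0.79 ± 0.163 (adjusted p = 0.0038). For PIM2 99.6% of all tested genes had a lower value. PIM1 and STAT3 differed by less, 0.33 ± 0.0846 (adjusted p = 0.013) and 0.28 ± 0.0726 (adjusted p = 0.014), and the PIM1 difference was lost with a pseudocount of 0.1 (0.23, adjusted p = 0.075). STAT5B (0.19 ± 0.0852, adjusted p = 0.12) and STAT6 (0.05 ± 0.0731, adjusted p = 0.64) did not pass.

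**Figure D3:**
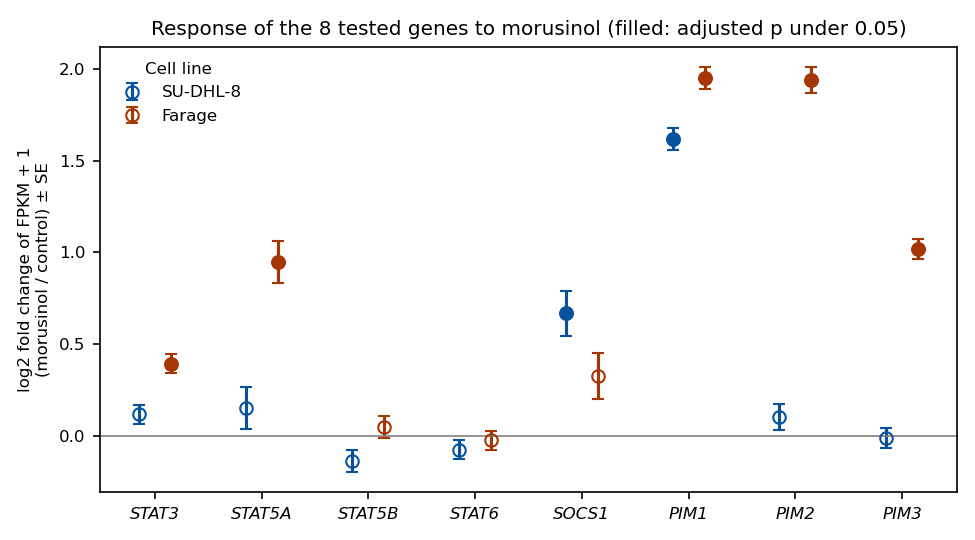
Log2 fold change of FPKM + 1, morusinol against control (y axis), for the 8 tested genes (x axis) in SU-DHL-8 (blue) and Farage (red). Points are estimates, error bars are ± 1 SE, and filled points have an adjusted p under 0.05. PIM1 is high in both lines (1.62 and 1.95), PIM2 and PIM3 only in Farage (1.94 and 1.02), and STAT5B and STAT6 sit near 0.

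The lines also differed before treatment. In controls 64.1% of all tested genes were called between the lines (34.5% higher and 29.6% lower in Farage), and 7 of the 8 members were higher in Farage. PIM1 had the largest difference at 2.03 ± 0.0598 (adjusted p = 3.2e-10, ratio of means 4.56), then STAT5A at 1.38 ± 0.115 and PIM2 at 1.35 ± 0.0696. STAT3 (1.23 ± 0.0513), PIM3 (0.89 ± 0.0538), STAT5B (0.76 ± 0.0602) and STAT6 (0.37 ± 0.0517) followed. SOCS1 was at a mean of 5.68 FPKM in SU-DHL-8 and 5.09 in Farage, with overlap (-0.12 ± 0.124, adjusted p = 0.41). The median over the 8 was 1.06, beside 0.08 over all tested genes.

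With morusinol 65.1% of all tested genes were called between the lines (33% higher and 32.1% lower in Farage), as were all 8 tested members. The means in this comparison share no library with those of the controls, but both tests used 1 estimate of spread from all 12 libraries. PIM2 was 9.63 times higher by the ratio of means in Farage, STAT5A 5.54 times, PIM1 5.31 times and PIM3 3.85 times. SOCS1 alone of the 8 was lower in Farage, at 0.697 of the SU-DHL-8 mean (-0.46 ± 0.124, adjusted p = 0.0071), a call lost with TPM scaling (-0.29, adjusted p = 0.12).

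By group means, STAT3, STAT5A and each PIM gene were lowest in untreated SU-DHL-8, then treated SU-DHL-8, then untreated Farage, and highest in treated Farage, except that PIM3 was 43.6 ± 2.19 FPKM in SU-DHL-8 controls and 43.3 ± 1.75 with morusinol. Within this order, the SU-DHL-8 groups of STAT3, STAT5A, PIM2 and PIM3 did not pass the test and the Farage groups of all 5 genes did. Treated SU-DHL-8 and untreated Farage differ in line and treatment and were not tested against each other for any gene. STAT5B and STAT6 followed the line only, with the SU-DHL-8 groups below the Farage groups and no call within a line. For SOCS1 the order of means was Farage control (5.09 ± 0.406 FPKM), SU-DHL-8 control (5.68 ± 1.10), Farage morusinol (6.66 ± 0.838) and SU-DHL-8 morusinol (9.55 ± 0.953). The control groups of the lines did not pass the test, and the groups that share neither line nor treatment were not tested against each other.

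Among the 8711 tested genes with a group mean of at least 5 FPKM, those whose log2 values over the 12 libraries were most like each member are given as a description, since 12 libraries in 4 groups share few patterns. PIM1 was most like NFKB2, with a Pearson r of 0.999, and KLF6 at 0.998. Mean NFKB2 was 19.2 FPKM in untreated and 45.8 in treated SU-DHL-8, and 59.6 and 154 in Farage. PIM2 was most like STC2 (r = 0.999) and PIM3 most like NR4A1 (r = 0.997). STAT3 was most like BAIAP2L1 (r = 0.9985) and STAT5A most like DUSP5 (r = 0.996), and AGPAT3 (r = 0.994) and TLCD3A (r = 0.985) came first for STAT5B and STAT6. SOCS1 had only 1 gene above 0.95, TMEM175 (r = 0.957), while PIM1 had 190 and STAT3 853. Among the members PIM2 and PIM3 were most alike (r = 0.995).

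The rest of the pathway was read from 8 lists of 85 other genes, of which 65 were tested. In SU-DHL-8 27 were higher and 15 lower, so 64.6% were called beside 46.8% of all tested genes. In Farage 33 were higher and 16 lower, or 75.4% beside 43.1%. Their median log2 fold change was 0.06 in SU-DHL-8 and 0.22 in Farage, beside 0.02 and -0.03 over all tested genes. The counts by list below are to be read against the same shares, 25.1% higher and 21.6% lower in SU-DHL-8 and 21.9% higher and 21.2% lower in Farage. With a filter of 5 FPKM the shares of all genes called in either direction were 67.1% in SU-DHL-8 and 63.6% in Farage. The difference of the responses called 29 of the 65 as higher and 18 as lower in Farage, and 41 were higher and 19 lower in Farage controls than in SU-DHL-8 controls; over all tested genes these differences called 34.9% and 64.1%.

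Of 16 cytokine ligands 5 were tested, with 2 higher in SU-DHL-8 and 3 higher and 1 lower in Farage. IL23A, a subunit of interleukin-23, rose in both lines, from 3.58 ± 0.367 to 11.5 ± 1.06 FPKM in SU-DHL-8 (1.45 ± 0.0883) and from 3.38 ± 0.365 to 8.36 ± 0.623 in Farage (1.10 ± 0.0883). EBI3, a subunit of interleukin-27, was near 0 in SU-DHL-8 and rose in Farage from 36.9 ± 3.42 to 44.7 ± 1.86 FPKM (0.27 ± 0.0710, adjusted p = 0.010), a call lost with a pseudocount of 0.1 or TPM scaling.

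Of 21 receptors 15 were tested, with 7 higher and 3 lower in SU-DHL-8 and 9 higher and 3 lower in Farage. CSF2RB, the shared chain of the interleukin-3, interleukin-5 and GM-CSF receptors, changed in opposite directions: it rose from 2.97 ± 0.312 to 5.22 ± 0.190 FPKM in SU-DHL-8 (0.65 ± 0.0681) and fell from 44.2 ± 1.06 to 16.4 ± 1.36 in Farage (-1.38 ± 0.0681). IFNAR1, an interferon receptor chain, rose by 0.42 ± 0.0559 in SU-DHL-8 and 0.86 ± 0.0559 in Farage, and IL21R by 0.80 ± 0.0583 and 0.64 ± 0.0583. IL2RA, the alpha chain of the interleukin-2 receptor and the highest point in the plot of pathway responses, was named after its values were seen. It was listed at 0 in 5 of the 6 SU-DHL-8 libraries. In Farage it was at 1.22, 1.24 and 1.30 FPKM in controls and 12.8, 14.5 and 15.3 with morusinol (2.75 ± 0.0819, adjusted p = 4.3e-09). The other chains of that receptor, also named after their values were seen, did not share this rise. In Farage IL2RB went from 6.37 ± 0.586 to 1.97 ± 0.259 FPKM, and IL2RG from 4.37 ± 0.485 to 5.04 ± 0.208.

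All 4 JAK kinases were tested and all were called in both lines: 4 were higher in SU-DHL-8, and in Farage 2 were higher and 2 lower, where 46.8% and 43.1% of all tested genes were called. JAK1 went from 13.4 ± 0.243 to 26.5 ± 0.721 FPKM in SU-DHL-8 (0.94 ± 0.0334) and from 24.5 ± 0.700 to 41.3 ± 0.532 in Farage (0.73 ± 0.0334). JAK2 rose by 0.42 ± 0.0862 in SU-DHL-8 and fell in Farage (-0.33 ± 0.0862, adjusted p = 0.011), though the Farage call was lost with a pseudocount of 0.1 or TPM scaling. JAK3, the partner of the common cytokine receptor chain, rose by 0.30 ± 0.0696 and 0.27 ± 0.0696, and its SU-DHL-8 call was lost with TPM scaling (0.22, adjusted p = 0.053).

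Among other STAT genes, STAT2 and STAT4 are described here. STAT2, a factor of interferon signalling, rose in SU-DHL-8 from 6.12 ± 0.595 to 22.4 ± 0.954 FPKM (1.72 ± 0.0691, adjusted p = 1.8e-08). In Farage it was at 13.8 ± 0.929 and 15.5 ± 0.799 FPKM (0.17 ± 0.0691, adjusted p = 0.079). That change was called in 2 of 22 alternatives, without Farage control 1 (0.22, adjusted p = 0.040) and with protein-coding scaling. STAT4 was near 0 in SU-DHL-8 and rose in Farage from 4.80 ± 0.736 to 10.7 ± 0.626 FPKM (1.02 ± 0.0943).

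**Figure D4:**
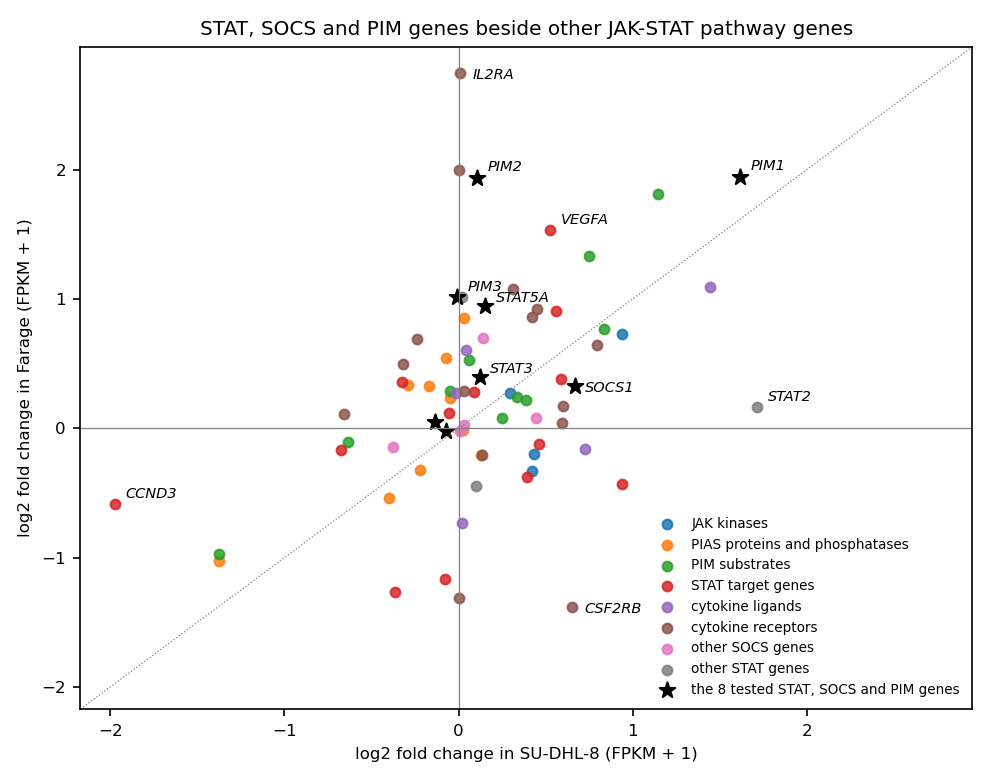
Log2 fold change of FPKM + 1 with morusinol in SU-DHL-8 (x axis) and Farage (y axis) for the 8 tested STAT, SOCS and PIM genes (stars) and 65 other pathway genes (circles, coloured by list). The dotted line marks equal change. PIM2, PIM3 and STAT5A lie near 0 on the x axis and at 1.94, 1.02 and 0.95 on the y axis, PIM1 is high on both, and CSF2RB lies at 0.65 and -1.38.

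Of the 5 other SOCS genes 1 was higher and 1 lower in SU-DHL-8, and 1 was higher in Farage. SOCS7 rose in Farage from 2.87 ± 0.124 to 5.28 ± 0.294 FPKM (0.70 ± 0.0540), with 0.14 ± 0.0540 in SU-DHL-8 (adjusted p = 0.055). The SU-DHL-8 change was called in 3 of 22 alternatives, without SU-DHL-8 control 3 or Farage morusinol 3 (adjusted p = 0.035 and 0.042) and with protein-coding scaling. SOCS4 fell in SU-DHL-8 (-0.38 ± 0.0762). SOCS6 was at a mean of 5.15 FPKM in Farage controls and 5.07 with morusinol, and was listed at 0 in 5 of the 6 SU-DHL-8 libraries.

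None of the 10 PIAS proteins and phosphatases, which restrain STAT signalling at other steps, was higher in SU-DHL-8. The 5 called were all lower, or 50% beside 21.6% lower and 46.8% called among all tested genes. In Farage 4 were higher and 4 lower, or 80% beside 43.1%. PTPN6, the phosphatase SHP-1, fell in both lines, from 4.23 ± 0.263 to 1.02 ± 0.222 FPKM in SU-DHL-8 (-1.38 ± 0.0769) and from 77.8 ± 4.82 to 37.6 ± 1.04 in Farage (-1.03 ± 0.0769). PTPN11, the phosphatase SHP-2, also fell in both (-0.40 ± 0.0388 and -0.54 ± 0.0388). SH2B3, an adaptor that restrains JAK2, rose in Farage by 0.85 ± 0.0472, with 0.03 ± 0.0472 in SU-DHL-8, a value that turned negative with TPM scaling.

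Of 16 STAT target genes 13 were tested, and 6 were higher and 4 lower in each line, or 76.9% called beside 46.8% of all tested genes in SU-DHL-8 and 43.1% in Farage. CCND3, which codes for cyclin D3, fell from 162 ± 2.86 to 40.7 ± 2.35 FPKM in SU-DHL-8 (-1.97 ± 0.0712) and from 40.4 ± 2.61 to 26.6 ± 2.59 in Farage (-0.58 ± 0.0712). JUNB, an AP-1 subunit, rose by 0.56 ± 0.0626 and 0.91 ± 0.0626. VEGFA, a growth factor of blood vessels, rose by 0.53 ± 0.0602 and 1.53 ± 0.0602. In Farage it went from 0.377 ± 0.0521 to 2.99 ± 0.109 FPKM, levels at which log2(FPKM + 1) compresses changes. Its Farage value ran from 1.505 to 2.70 over 22 alternatives.

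All 10 PIM substrates were tested, with 6 higher and 2 lower in SU-DHL-8 and 7 higher and 1 lower in Farage, or 80% called in each line beside 46.8% and 43.1% of all tested genes. CXCR4, a chemokine receptor, went from 103 ± 6.36 to 230.3 ± 9.18 FPKM in SU-DHL-8 (1.15 ± 0.0578) and from 7.16 ± 0.430 to 27.7 ± 1.37 in Farage (1.81 ± 0.0578). CDKN1B, the cell cycle inhibitor p27, rose by 0.75 ± 0.0413 and 1.33 ± 0.0413. CDC25A, a phosphatase that drives the cell cycle, fell in both lines (-1.37 ± 0.0513 and -0.97 ± 0.0513). These are transcript levels, and phosphorylation was not measured.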

How the data were processed

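RNA sequencing measured transcripts in 12 libraries of SU-DHL-8 and Farage cells, 3 each with vehicle or morusinol for 12 h; a SMARTer kit was used on total RNA, per the labels' protocols. The authors deposited FPKM, with 1 column per library; columns marked n were taken as control. The submitters' processing notes list the mouse builds GRCm38 and mm10, yet the identifiers are human, and 58297 of 61466 (94.8%) match GENCODE release 29. The sources used here do not give the aligner, the counter or the strand. No counts were used, and depth was estimated from the steps of low values (43.8% to 53.3% whole within 0.02 fragments), so no counting intervals are given. SU-DHL-8 control 3, Farage control 2 and Farage morusinol 3 had the lowest whole shares, 43.8%, 44.1% and 44.2%. All other libraries were at 51.5% to 53.3%, and the cause of this split was not tested.

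The deposited FPKM were transformed to log2(FPKM + 1) after a filter of at least 1 FPKM in at least 3 libraries (17574 genes). limma 3.58.1 (R 4.3.3) fitted 1 mean per group with an intensity trend and robust prior, all tests were two-sided, and p-values were adjusted by Benjamini-Hochberg over all genes tested. The fit was also run on simulated data with independent noise, no line differences and few genes changed, in treated SU-DHL-8 only. In the real data many more genes were called and the lines differed, so that run does not test the fit as used here. Plots were drawn with matplotlib 3.10.9 and tables made with pandas 2.3.3 and numpy 2.4.6 (Python 3.11.15). The members and gene lists were chosen with earlier results of these data known. Besides the 10 members, up to 3 genes per list with a group mean of at least 5 FPKM were named by smallest summed p ranks over both lines, plus the genes most like each member. A gene that this rule takes is not reported here. Alternatives were other pseudocounts (0.1 and 0.5), no filter or one of 5 FPKM, TPM, protein-coding and median-of-ratios scaling, a replicate block, plain empirical Bayes, fits of only the groups compared, and leaving out each library.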

Additional observations from a re-analysis of the deposited data

Results flagged for a closer look

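The limma test of the difference between the lines in their response (Farage minus SU-DHL-8, log2 scale) had an adjusted p under 0.05 for 22 of the members and pathway genes described. IL2RB and IL2RG were left out of this count. Over all tested genes the share was 34.9%. Among the STAT, SOCS and PIM genes these were PIM2 (1.83), PIM3 (1.03), STAT5A (0.79), PIM1 (0.33) and STAT3 (0.28). Among the other pathway genes the response was higher in Farage for IL2RA (2.74), CCND3 (1.39), VEGFA (1.01), STAT4 (0.996), SH2B3 (0.82), CXCR4 (0.67), CDKN1B (0.58), SOCS7 (0.56), IFNAR1 (0.43), CDC25A (0.41), PTPN6 (0.35), JUNB (0.34) and EBI3 (0.29). It was lower in Farage for CSF2RB (-2.03), STAT2 (-1.55), JAK2 (-0.75) and JAK1 (-0.21). The calls of EBI3 and PTPN6 passed in 5 and 12 of 21 alternatives, and that of JAK1 was lost with TPM scaling (-0.10) and with the median of ratios (-0.15). The VEGFA value ran from 0.956 to 2.11 over the 21. CCND3, CDC25A and PTPN6 fell in both lines, so their positive values mean a smaller fall in Farage. Groups of 3 libraries are too small for a test of single outlying samples.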

How the results depend on the processing

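Over the alternatives run on the 8 tested members, 850 of 872 values kept their direction and their side of the threshold, 12 became called, 2 lost their call and 8 changed sign. Many alternatives cannot change a log2 fold change within a line. These are other filters, the replicate block, plain empirical Bayes, only the groups compared, and leaving out a library of the other line. Direction is then kept by construction, so counts over the alternatives are not numbers of independent checks. PIM1 was called in all 22 alternatives in each line (1.57 to 1.75 in SU-DHL-8, 1.90 to 2.02 in Farage), as were PIM2, PIM3, STAT5A and STAT3 in Farage and SOCS1 in SU-DHL-8 (0.53 to 0.78). Sign changes were confined, among the members, to STAT6 and PIM3, neither called in the alternatives concerned. With protein-coding scaling STAT6 was 0.0004 in SU-DHL-8 and 0.046 in Farage, PIM3 was 0.064 in SU-DHL-8 and SOCS6 was 0.040 in Farage. Leaving out 1 library at a time gave, in SU-DHL-8, -0.050 to 0.020 for PIM3 (0.0015 and 0.018 being the other positive values), -0.0001 to 0.034 for STAT4, 0 to 0.0082 for SOCS6, -0.048 to 0.033 for EBI3 (0.0012 without either of 2 treated libraries) and 0 to 0.016 for IL2RA. In Farage it gave -0.059 to 0.018 for STAT6 (0.0079 without morusinol 3) and -0.040 to 0.0038 for SOCS6. SH2B3 in SU-DHL-8 was -0.071 with TPM scaling and -0.0064 with the median of ratios. The cause of these shifts was not tested. A filter of 5 FPKM, which leaves 8908 genes to test, called 7043 genes between the control groups and 7033 between the morusinol groups, against 11271 and 11441; as shares of the genes tested these are 79.1% and 79%, against 64.1% and 65.1%. With TPM scaling, under which 22986 genes passed the filter in place of 17574, the median of the genes tested between the lines was 0.24 in controls and 0.20 with morusinol (0.08 and 0.01 as deposited). The share of calls that were higher was then 60.2% against 49.6% for the difference of the responses and 62.4% against 50.7% between the morusinol groups, and the parts of the scaling and of the added genes in this were not tested. Leaving out 1 library at a time gave 7268 to 8253 genes called in SU-DHL-8, 6494 to 7524 in Farage, 5303 to 5871 for the difference, 10315 to 11223 between controls and 10655 to 11349 between morusinol groups. Members called were then 2 to 3 in SU-DHL-8, 5 to 6 in Farage, 5 for the difference, 7 between controls and 8 between morusinol groups; other pathway genes called were 38 to 42, 43 to 50, 40 to 46, 56 to 60 and 55 to 57. Replicate numbers are shared by the groups, but same-numbered libraries did not deviate together (correlations -0.079 to 0.054), and with a replicate block 7935 genes were called in SU-DHL-8 and 7287 in Farage, with 2 and 5 members called as without it. Not every library correlated best with its own number. Libraries with different numbers ran from -0.096 to 0.115, highest for Farage control 2 with Farage morusinol 3. Both had low whole shares (44.1% and 44.2%), and a link between the 2 was not tested. Under the block no call of a tested member changed, nor did a within-line call of the other pathway genes described. The markers, IL2RB, IL2RG, CISH and SOCS3 were not part of that check. At this depth CISH and SOCS3 rest on few fragments, which limits what can be read from them.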
